A study of Mus musculus with 9 samples.

Results

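The response of mouse ear skin to MC903 was read from 6 messenger RNA libraries, 3 from ears given MC903 and 3 from control ears given absolute ethyl alcohol, out of 9 libraries in the series. The libraries were taken by their treatment label, and all expressed genes were kept, which left 21925 tested genes of 55401 features. The animals were C57 mice, and the labels name no genetic alteration, age, sex, dose of MC903 or length of treatment. The remaining 3 libraries, from a group that also had paeonol (200 mg/kg), entered the statistical fit only to share its estimate of the spread. Each library holds RNA of the whole ear, so a lower level of a marker may mean fewer cells of a type or less RNA per cell, and these cannot be told apart. The labels do not say that the libraries came from separate animals, so p-values reflect the spread between libraries alone, and that spread may be technical.

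MC903 is calcipotriol, an analogue of the active form of vitamin D. It binds the vitamin D receptor, a nuclear receptor that pairs with the retinoid X receptor on direct repeats of a short DNA motif and, in keratinocytes, changes growth, differentiation and cytokine output. Applied to mouse ears it gives a widely used model of atopic dermatitis, with thickened epidermis and the keratinocyte cytokine TSLP at its start. The epidermis renews itself from basal cells, which divide, through spinous and granular layers to the cornified envelope, a cross-linked protein and lipid shell.

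Library totals were 54.26 to 57.75 M estimated counts. Levels are given in CPM, counts per 1000000 of the library size after TMM scaling, in the order of libraries 1, 2 and 3. Changes are log2 differences, MC903 minus control, with their standard error. Genes count as called where edgeR's quasi-likelihood test over all 21925 genes gave an adjusted p (Benjamini-Hochberg) under 0.05. Every adjusted p below is from that test, or from the same test in another fit where one is named. Of the genes tested, 46.8% were called, 23% higher and 23.8% lower, so a called member of a list is common and counts are read against these shares. Among the 16258 tested protein-coding genes the share called was higher, 55.3%, which is a nearer background for a list of such genes. Among called genes, 530 were at least 4-fold higher and 663 at least 4-fold lower, and 113 and 109 passed 32-fold. With genes in 4 equal groups by mean level, the share called was 15% in the lowest, 60% in the third and 67.4% in the highest. A list of well expressed genes thus has a background above 55.3%. The 3 control and 3 MC903 values did not overlap in 58.1% of genes, with MC903 above in 28.3% and below in 29.8%. On the first principal component of the 6 libraries, with 62.1% of the variance, controls lay from -83.9 to -75.9 and MC903 libraries from 77.4 to 87.3. On the second, with 10%, MC903 library 1 lay at -63.6, apart from the other MC903 libraries at 21.2 and 39.3. Under scaling by library totals alone the median log2 change over all genes went to -0.205, from -0.0155, and the share of calls that were higher from 49.2% to 32%, so small changes are relative to the scaling.

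The 8 called genes with the greatest gain in CPM were Krt16, Krt14, Krt6a, mt-Co1, Cyp24a1, Krt6b, Fabp5 and the mitochondrial ribosomal RNA mt-Rnr2. Together they held 2.19% to 2.72% of all counts in the control libraries and 6.28% to 6.53% in the MC903 libraries. Most of the control share was mt-Co1, which held a mean of 1.7% of counts in the controls and 1.97% in MC903. In proportion its gain was small, and it is relative to the scaling. The 8 with the greatest loss were Scd1, Lor, Col3a1, Col1a2, Krt15, Col1a1, Sparc and Gsn, which went from 2.19% to 2.29% of counts down to 0.436% to 0.568%. The gains included 4 keratins, and the losses a lipid desaturase, an envelope protein, a basal keratin and collagens.

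The vitamin D pathway itself moved at its degrading enzyme. Of 13 tested genes of vitamin D metabolism, transport and reception, 4 were called higher and 3 lower (3 and 5 with library totals). That is 53.8%, beside 46.8% of all genes and 55.3% of protein-coding genes. Cyp24a1 was measured at 11.4, 11.6 and 6.98 CPM in the control libraries and 4386, 4482 and 4971 CPM in the MC903 libraries. Every MC903 library was above every control library, by a log2 change 8.85 ± 0.46, adjusted p = 6.67e-06. Cyp24a1 encodes the hydroxylase that inactivates vitamin D and is its best known target gene. Vdr, the receptor, was at 73.6, 61.8 and 72.9 CPM in the controls and 81.5, 83.5 and 87.7 CPM in MC903, without overlap (log2 change 0.28 ± 0.08, adjusted p = 0.0183). That call ended with library totals alone as the scaling (log2 change 0.09, adjusted p = 0.394), without MC903 library 3 (0.25, adjusted p = 0.0639) and without control library 2 (0.20, adjusted p = 0.0764). Cyp27b1, which makes the active hormone, was at 0.384, 0.591 and 0.49 CPM in the controls and 0.803, 0.739 and 1.38 CPM in MC903 and did not pass the test (log2 change 0.99 ± 0.49, adjusted p = 0.117). Rxra, the partner of the receptor, fell from 200 ± 15.7 to 140 ± 9.96 CPM (log2 change -0.52 ± 0.08), and Cyp27a1, a mitochondrial sterol hydroxylase that can activate vitamin D, fell from 27.5 ± 2.11 to 14.8 ± 2.31 CPM (-0.89 ± 0.13). Cubn, part of the uptake receptor for the vitamin D binding protein, fell, with a log2 change of -1.83 ± 0.26, and Pdia3, a chaperone also described as a membrane receptor of the hormone, rose by 0.52 ± 0.07.

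Calcium handling genes, a classical target group of vitamin D in gut and kidney, showed 2 called higher and 5 lower of 16 tested. That is 43.8%, under the 46.8% of all genes and 55.3% of protein-coding genes, with a median log2 change of -0.0761. As a list it did not stand out, and single members did. S100g, calbindin-D9k, was measured at 0, 0 and 0 CPM in the controls and 9.51, 12.6 and 15.2 CPM in MC903. Against a floor of 12 counts per library this is at least 63-fold higher. Atp2b1, the plasma membrane calcium pump that vitamin D raises in intestine, was at 92.7, 102 and 91.2 CPM in the controls and 285, 291 and 322 CPM in MC903, with all MC903 libraries above all controls (log2 change 1.65 ± 0.13, adjusted p = 4.2e-06). The related pump Atp2b4 fell from 289 ± 32.2 to 114 ± 8.61 CPM (log2 change -1.34 ± 0.09). The store-operated calcium sensor Stim1 fell, with a log2 change of -1.02 ± 0.08 and the parathyroid hormone receptor Pth1r with -1.27 ± 0.15. Trpv6, the epithelial calcium channel, was at a mean of 18.4 CPM in control and 19.7 CPM in MC903 ears and was not called.

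The largest changes included other enzymes and membrane proteins besides Cyp24a1. Akr1d1, a steroid reductase of bile acid synthesis, was at 0.096, 0.115 and 0.152 CPM in the controls and 148, 130 and 135 CPM in MC903. With so few counts in the controls its change is better given as a ratio on counts, 1139-fold (95% interval 479 to 2847), covering counting error only. Fxyd4, a regulator of the sodium pump, rose from 0.737 ± 0.155 to 134 ± 6.1 CPM, and Gprc5a, a retinoid-induced receptor, from 0.786 ± 0.238 to 87.6 ± 11.3 CPM, with log2 changes of 7.50 ± 0.45 and 6.79 ± 0.65. Lrat, which stores retinol as esters, rose from 2.27 ± 0.536 to 101 ± 12.3 CPM (5.48 ± 0.48). Among the largest falls were Paqr7, a membrane progestin receptor, which went from 420 ± 88.6 to 10.1 ± 2.74 CPM (-5.38 ± 0.48), and Acoxl, a peroxisomal oxidase relative, which went from 76.6 ± 5.44 to 3.94 ± 1.99 CPM (-4.29 ± 0.37). Slurp1 and Slurp2, secreted keratinocyte ligands of nicotinic receptors, fell, with log2 changes of -3.98 ± 0.30 and -3.61 ± 0.59. All of these had groups without overlap. An exon of Slurp1 overlaps a gene on the opposite strand, and the strand setting of the counting is not known.

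Keratins of wounded and hyperproliferative epidermis had 5 called higher and 2 lower of 9 tested, with a median log2 change of 2.31 against -0.0155 for all genes. Krt16 was measured at 112, 360 and 364 CPM in the control libraries and 8995, 9591 and 8479 CPM in the MC903 libraries. Krt6a was measured at 148, 348 and 290 CPM in the control libraries and 5519, 5986 and 5788 CPM in the MC903 libraries. The lowest MC903 library was far above the highest control for both, with log2 changes of 5.02 ± 0.54 and 4.46 ± 0.39 and adjusted p-values of 0.000314 and 8.89e-05. Krt6b, near-identical in sequence to Krt6a so that reads may be split between them, rose from 149 ± 80.4 to 4603 ± 358 CPM. Krt17, the partner of Krt6 in hair follicle and wound, rose by 2.31 ± 0.21, and Krt75, a companion-layer keratin, by 2.71 ± 0.33. Of the simple epithelial keratins on this list, Krt8 fell, with a log2 change of -1.76 ± 0.19, and Krt19, a stem cell keratin of the follicle bulge, with -2.42 ± 0.45, while Krt18, the partner of Krt8, at 0.75 and Krt7 at -0.48 were not called.

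Basal layer genes split. Krt14 was measured at 5412, 5337 and 5832 CPM in the control libraries and 13227, 14152 and 13550 CPM in the MC903 libraries. Krt15 was measured at 1831, 1455 and 1964 CPM in the control libraries and 274, 298 and 299 CPM in the MC903 libraries. Krt14, the pan-basal keratin, was higher in each MC903 library (log2 change 1.30 ± 0.07, adjusted p = 4.13e-07), while Krt15, a basal keratin of resting epidermis, was lower in each (log2 change -2.59 ± 0.13, adjusted p = 4.92e-07). Krt5, the dimer partner of Krt14, went from 6402 ± 355 to 5588 ± 141 CPM (log2 change -0.20 ± 0.06), a call that ended in turn without MC903 library 1 or 3 or control library 1 or 3, at adjusted p-values of 0.0576 to 0.0661. Of 16 basal genes, 4 were called higher and 7 lower (3 and 11 with library totals). The hemidesmosomal collagen Col17a1 fell, with a log2 change of -0.99 ± 0.08 and the stem cell receptor Lgr6 with -1.96 ± 0.10. Trp63, the master transcription factor of stratified epithelium, was at a mean of 238 CPM in control and 235 CPM in MC903 ears and was not called.

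Suprabasal genes showed 3 called higher and 5 lower of 16, near the background, and 5 in all without MC903 library 2. Krt1 was measured at 1042, 986 and 1063 CPM in the control libraries and 5855, 3844 and 2956 CPM in the MC903 libraries. Its partner Krt10 was at 4025, 2595 and 2521 CPM in the controls and 4909, 1974 and 1254 CPM in MC903. Krt1 was higher in each MC903 library (log2 change 2.03 ± 0.22, adjusted p = 0.000119), but the Krt10 groups overlapped and the gene was not called (log2 change -0.17 ± 0.50, adjusted p = 0.816). MC903 library 1 had the highest Krt1 and Krt10 of the MC903 libraries. Krt77, a keratin of sweat ducts and interfollicular epidermis, fell from 52.6 ± 23.9 to 1.04 ± 0.41 CPM (-5.66 ± 0.69). Skint5, of a family expressed in epidermis and thymus, fell, with a log2 change of -3.51 ± 0.37, and its relative Skint9 with -3.16 ± 0.33. Across the type II keratin cluster on chromosome 15, 10 of 29 tested genes were called higher and 4 lower, and 9 of the 10 rose at least 4-fold. Gm49428 and Krt6a, which start at 101690309 and 101689910 and may share reads, both count among the 10. The type I cluster on chromosome 11 had 5 higher and 13 lower of 32, with 9 of the 13 at least 4-fold lower. Krt36, a type I hair and nail keratin, rose from 4.49 ± 5.86 to 366 ± 238 CPM, against the direction of most called genes of its cluster.

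The epidermal differentiation complex on chromosome 3 (GRCm38, 90511034 to 93564643, from S100a1 to S100a10) holds the genes of the cornified envelope. Of its 83 tested genes 40 were called higher and 23 lower, and 28 rose and 5 fell at least 4-fold. The share called was 75.9%, against 46.8% of all genes and 55.3% of protein-coding genes. Some entries lie at the same place, such as Gm37857 and Rptn, which start at 93393698 and 93393699 (log2 changes 6.64 and 6.69). A locus may thus be counted more than once. Families within the complex went in different directions.

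**Figure D1:**
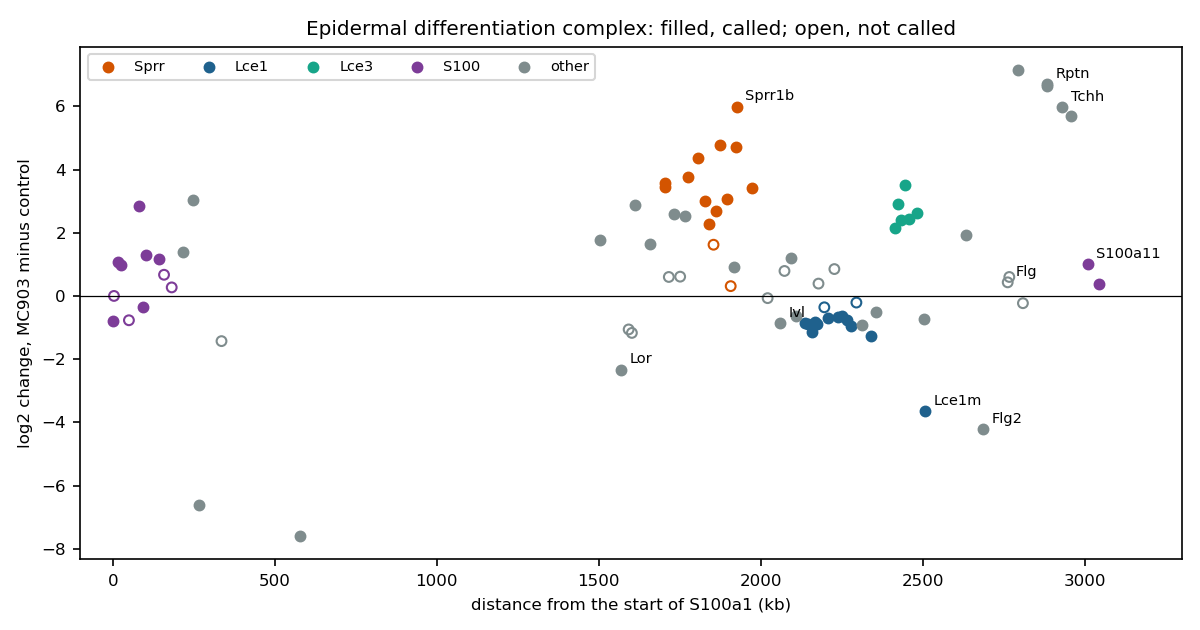
The log2 change of each tested gene of the epidermal differentiation complex is plotted against its distance in kb from the start of S100a1, with filled points for called genes and colours for families. Sprr and Lce3 genes lie above 0 and Lce1 genes below it, with Lce1m at -3.64, Flg2 at -4.22 and Rptn at 6.69.

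The small proline-rich proteins, cross-linking precursors of the envelope, had 12 called higher and 0 lower of 14 tested and a median log2 change of 3.42. Sprr1b was measured at 5.36, 7.12 and 11.8 CPM in the control libraries and 534, 547 and 457 CPM in the MC903 libraries. Sprr2h was at 4.53, 8.17 and 6.56 CPM in the controls and 186, 160 and 175 CPM in MC903. In both the groups lay far apart, with log2 changes of 5.99 ± 0.43 and 4.76 ± 0.35. Sprr1a rose from 19.3 ± 5.2 to 205 ± 36.8 CPM and Sprr2d from 18.6 ± 6.92 to 148 ± 19.7 CPM. Sprr2a1 and Sprr2a2, at 1705 and 1516 CPM in MC903, start at 92215799 and 92215920. Both entries may report the same reads, their split of reads is uncertain, and both count among the 12. Sprr2f was at a mean of 3.28 CPM in control and 10.1 CPM in MC903 ears and was not called.

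Promoters here are the 300 bases from 250 before to 50 after each gene's start in RefSeq for GRCm38.p6, given for 27025 genes. The AP-1 motif TGANTCA, on either strand, lay in 9 of the 14 Sprr promoters, that of the uncalled Sprr2f among them, and in 8.97% of all promoters. In the 3480 promoters of genes called higher it lay in 275. The 250 bases before the start of 2 of these genes, both on chromosome 3, are shown with the motif in capitals, first at 92438780 to 92439029 on the minus strand and then at 92385435 to 92385684 on the plus strand.
Sprr1b: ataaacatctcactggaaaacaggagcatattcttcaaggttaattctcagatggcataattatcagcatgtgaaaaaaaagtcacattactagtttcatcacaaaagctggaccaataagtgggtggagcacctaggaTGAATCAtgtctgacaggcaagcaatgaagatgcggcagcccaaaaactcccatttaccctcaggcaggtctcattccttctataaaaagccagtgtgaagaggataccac
Sprr2h: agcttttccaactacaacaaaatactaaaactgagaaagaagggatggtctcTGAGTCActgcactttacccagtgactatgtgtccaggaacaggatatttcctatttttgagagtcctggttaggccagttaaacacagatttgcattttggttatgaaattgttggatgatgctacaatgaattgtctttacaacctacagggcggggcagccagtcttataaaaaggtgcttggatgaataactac
The motif begins 111 bases before the start of Sprr1b and 198 bases before that of Sprr2h. A match is a description of the letters and does not show that a factor binds there. This was 1 of 14 pairs of a motif and a list examined. The promoters given hold no entry for Cyp24a1, Tslp or Krt16, so these genes were not searched for any motif. A direct repeat of vitamin D receptor hexamers (each AGGTCA, or else AGTTCA, or else GGGTCA, or else GGTTCA, spaced by 3 bases) was in 12 of 27025 promoters, in 0 of the 3480 of genes called higher and in 0 of 14 of the vitamin D list, which says only that these letters are not in this window.

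The late cornified envelope proteins divided by subfamily, with 6 called higher and 13 lower of 21 tested. All 6 Lce3 genes, the group known from wounded and psoriatic skin, were called higher, from 2.16 for Lce3a to 3.52 for Lce3d. Lce3d was at 0.944, 1.3 and 1.94 CPM in the controls and 12.3, 14.9 and 20.7 CPM in MC903. The Lce1 genes that were called all fell, from -0.62 for Lce1h to -3.64 for Lce1m, and Lce1e and Lce1k were not called. Lce1m was at 372, 207 and 219 CPM in the controls and 30.1, 13.2 and 20.8 CPM in MC903. The controls of Lce1m were all above the MC903 libraries, and those of Lce3d all below.

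Filaggrin-like and late envelope proteins also went both ways, 9 called higher and 5 lower of 16. Rptn was measured at 11.4, 13.6 and 12.5 CPM in the control libraries and 1376, 1181 and 1300 CPM in the MC903 libraries. Rptn (repetin) and Tchh (trichohyalin), fused-type S100 proteins of tongue, hair sheath and stressed epidermis, rose by 6.69 ± 0.45 and 5.97 ± 0.55. Flg2 was measured at 1035, 587 and 501 CPM in the control libraries and 55.3, 30.6 and 28.4 CPM in the MC903 libraries. Flg2, filaggrin-2, fell in each MC903 library (log2 change -4.22 ± 0.44, adjusted p = 0.000244). Flg itself, the filaggrin gene whose loss of function predisposes to eczema, was at 593, 398 and 474 CPM in the controls and 912, 632 and 425 CPM in MC903, with overlapping groups (log2 change 0.43 ± 0.27, adjusted p = 0.249). MC903 library 1 had the highest Flg, Flg2 and Lor of the MC903 libraries, as it had for Krt1. Lor, loricrin, the most abundant envelope protein, was at 3275, 2249 and 1929 CPM in the controls and 718, 408 and 360 CPM in MC903 and fell in each (log2 change -2.33 ± 0.31, adjusted p = 0.00068). Ivl, involucrin, fell from 32.4 ± 5.8 to 18.1 ± 5.71 CPM (-0.85 ± 0.21), and Hrnr, hornerin, was at a mean of 676 CPM in control and 577 CPM in MC903 ears and was not called.

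Enzymes that build and shed the envelope changed in both directions. Of 19 transglutaminases, deiminases and proteases, 9 were called higher and 4 lower. Tgm3, the transglutaminase that cross-links trichohyalin and small proline-rich proteins, rose from 94.1 ± 7.28 to 376 ± 16.6 CPM (2.00 ± 0.11), and Tgm1 from 80.8 ± 23.1 to 166 ± 15.9 CPM. Casp14 and Blmh, which cut filaggrin into free amino acids, rose by 2.24 ± 0.15 and 1.63 ± 0.14. Padi3, a peptidylarginine deiminase of hair follicle and epidermis, rose from 0.781 ± 0.23 to 18.1 ± 1.72 CPM, and Padi4, the deiminase of granulocytes, rose from 0.699 ± 0.165 to 59.9 ± 1.42 CPM. Asprv1, the protease that trims profilaggrin, fell, with a log2 change of -0.85 ± 0.21.

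Kallikreins, serine proteases that cut corneodesmosomes, had 8 called higher and 0 lower (8 and 1 with library totals) of 10 tested, with a median of 2.59. Klk13 was measured at 11.2, 16.5 and 13.5 CPM in the control libraries and 380, 394 and 387 CPM in the MC903 libraries. Klk6 was at 15.6, 31.2 and 21.3 CPM in the controls and 311, 293 and 281 CPM in MC903. The groups of both were far apart (log2 changes 4.82 ± 0.32 and 3.70 ± 0.38). Klk7, the main desquamating chymotryptic kallikrein, rose from 232 ± 42.1 to 725 ± 33.7 CPM, while Klk5, its activator, was at 54.4, 41.1 and 32.2 CPM in the controls and 35.9, 27.9 and 22.8 CPM in MC903 with overlapping groups and was not called. Their inhibitor Spink5 (LEKTI) rose from 213 ± 36.1 to 440 ± 22.3 CPM (1.05 ± 0.15).

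Protease inhibitors had 12 called higher and 9 lower of 28, with large changes at both ends. Slpi, a secreted elastase inhibitor, rose from 7.19 ± 1.82 to 182 ± 39.3 CPM (4.66 ± 0.41), and Wfdc12 from 3.92 ± 1.21 to 63.3 ± 10.1 CPM. Serpina3n, an acute-phase serpin, rose by 2.00 ± 0.12. Serpina3b fell from 46.6 ± 14.7 to 0.407 ± 0.119 CPM (-6.83 ± 0.32), Serpinb6d from 44.8 ± 7.76 to 0.937 ± 0.57 CPM (-5.59 ± 0.36) and Wfdc21 from 59 ± 21.3 to 3.41 ± 0.301 CPM (-4.11 ± 0.27). The stefin A cluster on chromosome 16 (36119946 to 36285373), cysteine protease inhibitors that resemble each other closely, had 7 of 8 tested genes called higher, all at least 4-fold. Csta1, of this interval, rose from 119 ± 11.7 to 1262 ± 143 CPM. Of their relatives outside the interval, which that count leaves out, BC100530 rose from 62.4 ± 41.2 to 1539 ± 169 CPM and Stfa3 from 22.6 ± 16.3 to 343 ± 63.1 CPM. Reads of these paralogs may be split between copies.

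**Figure D2:**
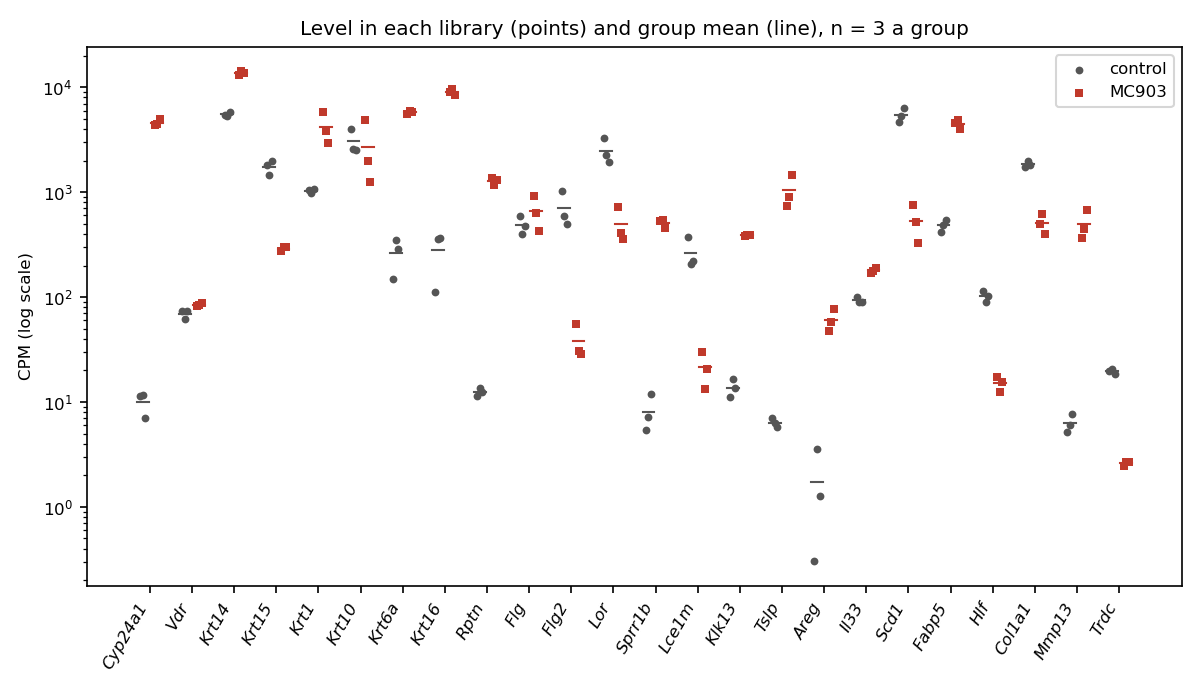
CPM on a log scale is shown for 24 genes in the 3 control (circles) and 3 MC903 libraries (squares), with lines at the group means. The groups of Krt10 and Flg overlap, and those of the other genes shown do not.

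Junction genes of both kinds changed. Gap junction and desmosome genes had 12 called higher and 2 lower (11 and 6 with library totals) of 21, and claudin and tight junction genes 4 called higher and 11 lower of 17 with a median of -0.89. Gjb6 was measured at 5.22, 8.87 and 7.55 CPM in the control libraries and 315, 334 and 302 CPM in the MC903 libraries. Gjb6 and Gjb2 encode connexins 30 and 26, which are low in resting epidermis, and rose by 5.46 ± 0.30 and 3.97 ± 0.31. Among desmosome genes Dsc2 rose from 9.94 ± 0.718 to 60.1 ± 7.06 CPM and Dsg3 from 172 ± 5.42 to 390 ± 30.6 CPM. Of tight junction genes, Tjp3 fell from 42.9 ± 4.96 to 9.98 ± 2.45 CPM (-2.10 ± 0.17) and tricellulin (Marveld2) from 24.2 ± 2.59 to 7.71 ± 1 CPM (-1.65 ± 0.14). Cldn1, the claudin required for the skin water barrier, fell, with a log2 change of -0.46 ± 0.08, and Cldn4 rose by 0.89 ± 0.18.

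Ceramide and barrier lipid genes had 11 called higher and 8 lower (7 and 10 with library totals) of 30. Ugcg, which makes glucosylceramide, rose from 72.6 ± 4.58 to 178 ± 13.7 CPM (1.30 ± 0.11), and Degs2, a ceramide hydroxylase whose exons overlap a gene on the opposite strand, from 1.17 ± 0.647 to 10.8 ± 2.47 CPM (3.20 ± 0.51). Fa2h, the fatty acid 2-hydroxylase, was at 803, 837 and 1028 CPM in the controls and 177, 95.3 and 53.9 CPM in MC903, and the groups did not overlap (log2 change -3.03 ± 0.45, adjusted p = 0.00143). Alox12e fell, with a log2 change of -2.99 ± 0.33, Slc27a4, a fatty acid transporter required for the barrier, with -2.24 ± 0.19, and Cers4 with -1.70 ± 0.32.

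Epidermal transcription factors had 12 called higher and 6 lower (7 and 11 with library totals) of 29. Elf3, an epithelial factor induced by injury, rose from 3.55 ± 0.878 to 31.7 ± 3.39 CPM (3.16 ± 0.28), and Zfp750 and Ovol1, which promote differentiation, by 1.19 ± 0.09 and 1.04 ± 0.10. Gata3 fell from 71.5 ± 8.36 to 25.4 ± 1.85 CPM (-1.49 ± 0.09) and Sox9 from 48.1 ± 1.15 to 18.8 ± 2.06 CPM (-1.35 ± 0.09). Sox9 marks follicle stem cells and cartilage. Cartilage markers, given below, were also lower, and their part in this result was not tested.

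Alarmins and cytokines came next. Of 21 genes of the TSLP and type 2 axis, 10 were called higher and 3 lower (6 and 3 with library totals). Tslp was measured at 6.98, 6.35 and 5.78 CPM in the control libraries and 740, 907 and 1472 CPM in the MC903 libraries. The MC903 libraries spread more widely than the controls, but the lowest was over all controls (log2 change 7.35 ± 0.44, adjusted p = 1.51e-05). The shared type 2 receptor Il4ra rose from 46 ± 20.2 to 190 ± 27.5 CPM (2.05 ± 0.29). Arg1, an enzyme of alternatively activated macrophages and epidermis, rose from 8.51 ± 1.28 to 63.3 ± 13.1 CPM (2.90 ± 0.33). Il4 was at 1.1, 1.12 and 0.744 CPM in the controls and 0.705, 0.758 and 1.13 CPM in MC903. Il13 was at 0.144, 0.344 and 0.338 CPM in the controls and 0.0783, 0.185 and 0 CPM in MC903, near the floor of 12 counts. The groups of both genes overlapped, and neither was called. Il17rb, the receptor of IL-25, fell, with a log2 change of -1.04 ± 0.19.

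The interleukin-1 family showed 8 called higher and 3 lower (8 and 6 with library totals) of 20. Il33, an alarmin stored in keratinocyte nuclei, was at 100, 89.3 and 90.3 CPM in the controls and 170, 179 and 190 CPM in MC903, without overlap (log2 change 0.95 ± 0.10, adjusted p = 1.18e-05). Il1b rose from 12.3 ± 3.92 to 40.5 ± 6.12 CPM (1.72 ± 0.23). Il1f10, which encodes IL-38, fell from 13 ± 2.88 to 0.36 ± 0.201 CPM (-5.17 ± 0.37). The interleukin-36 agonists Il1f8 and Il1f9 were at a mean of 27.1 CPM in control and 33.3 CPM in MC903 ears and a mean of 67 CPM in control and 61.3 CPM in MC903 ears and were not called, and Il1f6, another agonist, fell, with a log2 change of -1.24 ± 0.26. Of the gp130 cytokine axis and the axes of IL-20 and IL-17, with 6 called higher and 10 lower of 23, the ligands Il24 and Il19 rose from 0.656 ± 0.741 to 12.2 ± 7.1 CPM and from 1.94 ± 1.98 to 13 ± 5.62 CPM, and the receptor chains Il20ra and Il20rb fell, with log2 changes of -0.80 ± 0.12 and -1.14 ± 0.12. The calls of Il24 and Il19 ended without MC903 library 3 (adjusted p = 0.0602 and 0.0721), without control library 3 (0.0769 and 0.0879) and in a fit of the 6 libraries alone (0.0503 and 0.0558). Osm, oncostatin M, rose from 1.15 ± 0.497 to 8.32 ± 2.12 CPM and its receptor Osmr by 0.85 ± 0.10.

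Chemokines had 14 called higher and 5 lower of 35 tested. Ccl3 was measured at 2.1, 3.26 and 1.44 CPM in the control libraries and 11.3, 19.5 and 17.8 CPM in the MC903 libraries. Ccl3, a ligand of CCR1, was higher in each MC903 library (log2 change 2.84 ± 0.34, adjusted p = 5.95e-05). Ccl6 and Ccl9, made by myeloid cells, rose from 44.8 ± 2.99 to 243 ± 21 CPM and from 39.1 ± 3.92 to 181 ± 34.5 CPM. Cxcl2, which draws neutrophils through CXCR2, was at 6.74, 8.89 and 3.87 CPM in the controls and 31.3, 50.4 and 49.8 CPM in MC903, also without overlap (log2 change 2.75 ± 0.32, adjusted p = 0.000144), and Cxcl3 rose by 3.66 ± 0.50. Ccl27a, the skin T cell chemokine of resting keratinocytes, fell from 15.9 ± 0.292 to 3.46 ± 1.18 CPM (-2.20 ± 0.21), and Ccl21a, of lymphatic vessels, with -1.35 ± 0.15. Ccl2, Ccl20, Cxcl9 and Cxcl10 had overlapping groups and were not called.

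The NF-kB motif was searched on either strand and is shown in capitals in the sequences printed here. Among 27 chemokine promoters in the RefSeq table it was in 3, those of Cxcl1, Cxcl2 and Cxcl3, against 0.466% of all promoters. In the 3480 promoters of genes called higher it lay in 23. These 3 chemokines were called higher, but a match does not show that a factor binds there. This too was 1 of the 14 pairs examined, and these chemokines are related genes whose promoters may not be independent cases. The 250 bases before the starts of 2 of them, both on the plus strand of chromosome 5, are printed with the motif in capitals, Cxcl2 at 90903649 to 90903898 and Cxcl3 at 90785851 to 90786100.
Cxcl2: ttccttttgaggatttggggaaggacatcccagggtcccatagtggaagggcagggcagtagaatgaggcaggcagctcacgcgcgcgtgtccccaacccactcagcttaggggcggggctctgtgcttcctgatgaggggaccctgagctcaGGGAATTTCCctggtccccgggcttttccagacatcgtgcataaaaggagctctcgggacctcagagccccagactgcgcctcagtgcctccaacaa
Cxcl3: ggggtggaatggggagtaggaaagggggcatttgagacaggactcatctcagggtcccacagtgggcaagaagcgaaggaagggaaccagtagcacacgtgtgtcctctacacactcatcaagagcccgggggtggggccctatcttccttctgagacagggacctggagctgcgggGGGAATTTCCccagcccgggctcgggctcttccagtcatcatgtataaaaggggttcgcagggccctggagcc
The motif begins 97 bases before the start of Cxcl2 and 73 before that of Cxcl3.

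Chemokine receptors had 6 called higher and 6 lower (5 and 8 with library totals) of 21. Ccr1 rose from 6.26 ± 2.45 to 25.3 ± 2.46 CPM and the neutrophil receptor Cxcr2 from 3.51 ± 1.39 to 10.4 ± 1.77 CPM. Ackr4, a scavenger of CCL21 in keratinocytes, fell from 72.9 ± 4.59 to 13.7 ± 2.51 CPM (-2.41 ± 0.14), and the T cell homing receptor Ccr4 fell, with a log2 change of -1.66 ± 0.18.

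S100 and antimicrobial proteins were mixed. S100 genes had 6 called higher and 3 lower of 13, with S100a6 rising from 482 ± 25.2 to 1170 ± 101 CPM and S100a11 from 283 ± 6.81 to 567 ± 19.9 CPM. S100a8 and S100a9, the calprotectin chains, were at 39.2, 165 and 80.6 CPM in the controls and 130, 193 and 131 CPM in MC903 and 42.4, 160 and 87.1 CPM in the controls and 109, 144 and 97.1 CPM in MC903 and did not pass the test. Antimicrobial genes had 10 called higher and 3 lower (9 and 5 with library totals) of 22. The beta-defensins Defb14 and Defb4 rose from 3.11 ± 0.494 to 58.7 ± 12.9 CPM and from 0.684 ± 0.553 to 31.5 ± 1.63 CPM, and Defb6 fell from 39.7 ± 3.45 to 3.98 ± 1.05 CPM. Chil3, a macrophage product of the chitinase family, rose from 1.56 ± 0.455 to 76.8 ± 30.4 CPM (5.62 ± 0.52).

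Ligands of the epidermal growth factor receptor changed member by member, 6 called higher and 6 lower of 17. Areg was measured at 0.304, 3.59 and 1.28 CPM in the control libraries and 47.7, 57.7 and 77.7 CPM in the MC903 libraries. Epgn was at 2.06, 8.63 and 4.44 CPM in the controls and 116, 139 and 169 CPM in MC903. Amphiregulin (Areg) and epigen (Epgn) were higher in each MC903 library (log2 changes 5.14 ± 0.81 and 4.81 ± 0.65), as was neuregulin-1 (Nrg1, 3.54 ± 0.35). Betacellulin (Btc) fell, with a log2 change of -2.51 ± 0.52, and Tgfa was at a mean of 27.2 CPM in control and 24.8 CPM in MC903 ears and Ereg at a mean of 15.3 CPM in control and 13 CPM in MC903 ears, neither called. The feedback inhibitor Errfi1 rose by 1.76 ± 0.11, and the restraining protein Lrig1 fell, with a log2 change of -0.87 ± 0.07.

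Other growth factors had 12 called higher and 10 lower of 33. Artn, artemin, a neurotrophic ligand, rose from 0.65 ± 0.327 to 5.12 ± 1.39 CPM. Bmp2 rose by 1.78 ± 0.27, Tgfb2 and Tgfb3 fell, with log2 changes of -1.15 ± 0.12 and -1.19 ± 0.13, and Fgf18, of the follicle, with -1.99 ± 0.27. In the TNF superfamily, with 6 called higher and 4 lower of 24, Tnfsf11 (RANKL, a classical vitamin D target of bone) rose from 0.524 ± 0.338 to 13.7 ± 1.67 CPM (4.70 ± 0.51), and its decoy Tnfrsf11b (osteoprotegerin) fell from 10.2 ± 0.828 to 2.71 ± 0.515 CPM (-1.91 ± 0.18).

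Wnt pathway genes mostly fell, 3 called higher and 23 lower of 33 with a median of -1.02. Axin2 was measured at 58.9, 48.2 and 49.4 CPM in the control libraries and 17.7, 16.7 and 13.6 CPM in the MC903 libraries. Axin2, a direct target that reads pathway activity, was lower in each MC903 library (log2 change -1.70 ± 0.11, adjusted p = 8.85e-07). The ligands Wnt3, Wnt7b and Wnt10b fell, with log2 changes of -2.34 ± 0.19, -1.50 ± 0.14 and -3.45 ± 0.34, and the inhibitors Sfrp2 and Wif1 with -3.16 ± 0.15 and -1.76 ± 0.11. Wnt10a and Wnt4 rose, by 1.09 ± 0.11 and 0.52 ± 0.07.

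Lipid mediators and itch genes followed. Prostaglandin and leukotriene genes had 12 called higher and 5 lower (9 and 6 with library totals) of 28. Ptgs2 (cyclooxygenase-2) was at 3.46, 5.25 and 3.65 CPM in the controls and 88.5, 80.6 and 93.7 CPM in MC903, without overlap (log2 change 4.41 ± 0.30, adjusted p = 9.26e-06). Ptges, the prostaglandin E synthase, rose from 69.8 ± 12.6 to 290 ± 20.8 CPM and the phospholipase Pla2g4e from 36.7 ± 3.98 to 218 ± 27.6 CPM, while Hpgd, which degrades prostaglandins, fell from 40.9 ± 1.81 to 12.5 ± 3.47 CPM. Of 23 itch and sensory genes, 9 were called higher and 6 lower. Hdc, the enzyme that makes histamine, rose from 5.57 ± 0.617 to 43.5 ± 6.75 CPM (2.96 ± 0.14), and Trpv3, a warm-sensing channel of keratinocytes, was at 55, 46.9 and 55.6 CPM in the controls and 183, 163 and 191 CPM in MC903 (log2 change 1.77 ± 0.13, adjusted p = 1.98e-06). The protease receptor F2rl1 (PAR2) fell, with a log2 change of -1.11 ± 0.14. Transcripts of sensory neurons such as Trpv1, at a mean of 0.577 CPM in control and 0.698 CPM in MC903 ears, were near the floor. The cell bodies of these neurons lie outside the ear.

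Most cell division genes rose. Of 31 replication genes 25 were called higher and 0 lower (15 and 1 with library totals), and of 27 mitosis genes 24 were called higher and 0 lower. Mki67 was measured at 144, 131 and 143 CPM in the control libraries and 264, 243 and 225 CPM in the MC903 libraries. Mki67, the marker of cycling cells, was higher in each MC903 library (log2 change 0.81 ± 0.09, adjusted p = 1.76e-05). Mcm5 of the replication helicase rose from 28.9 ± 3.94 to 83.8 ± 3.89 CPM, Rrm2 from 22.1 ± 3.05 to 50.8 ± 1.79 CPM and Cdk1 from 30.6 ± 2.5 to 64.4 ± 0.207 CPM. The rises were small beside those of the envelope genes: the median was 0.41 for replication and 0.81 for mitosis.

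Several metabolic lists had mostly higher members. NRF2 antioxidant genes had 19 called higher and 5 lower of 26, with Gsr (glutathione reductase) rising from 30 ± 0.876 to 149 ± 13.3 CPM and the cystine importer Slc7a11 from 6.11 ± 1.94 to 48.6 ± 4.98 CPM. The amino acid list was 19 called higher and 3 lower of 25 with a median of 1.04. Asns (asparagine synthetase) was at 34.2, 36.3 and 36.9 CPM in the controls and 165, 188 and 196 CPM in MC903, without overlap (log2 change 2.35 ± 0.13, adjusted p = 7.33e-07), and the transporter Slc7a5 rose from 36.3 ± 1.83 to 207 ± 15.2 CPM. Glycolysis and hypoxia genes had 16 called higher and 5 lower of 24, with Eno1 (enolase) rising from 229 ± 14.3 to 644 ± 50.7 CPM and with Hif1a rising from 114 ± 11.7 to 421 ± 50.8 CPM. Pfkm, the muscle isoform of phosphofructokinase, fell, with a log2 change of -1.43 ± 0.12.

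Most fatty acid synthesis and sebaceous genes fell, 2 called higher and 20 lower of 28 with a median of -1.0. Not all members fell: Awat1 and Awat2, at log2 changes of 0.39 and 0.92, were not called, and Far1 was called higher at 0.46. Scd1 was measured at 4662, 5301 and 6280 CPM in the control libraries and 753, 518 and 325 CPM in the MC903 libraries. Scd1, the desaturase of sebaceous gland lipid, was lower in each MC903 library (log2 change -3.35 ± 0.33, adjusted p = 0.000129). Adipocyte markers were lower in the same libraries, 0 called higher and 15 lower of 15 with a median of -1.59. Fat cells also express members of the fatty acid list such as Pparg, Fabp4 and Dgat2, and their part in this result was not tested. Elovl5 fell from 176 ± 24.6 to 34.3 ± 1.96 CPM, Dgat2 from 221 ± 11 to 71.6 ± 11.6 CPM and the regulator Srebf1 from 242 ± 5.07 to 108 ± 11.2 CPM. Fabp5, the epidermal fatty acid binding protein, went the other way, at 422, 483 and 545 CPM in the controls and 4555, 4828 and 3973 CPM in MC903 (log2 change 3.20 ± 0.20, adjusted p = 4.47e-06). Cholesterol synthesis was mixed, 8 called higher and 7 lower (4 and 11 with library totals) of 24, with Fdps, farnesyl diphosphate synthase, rising by 1.12 ± 0.09.

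**Figure D3:**
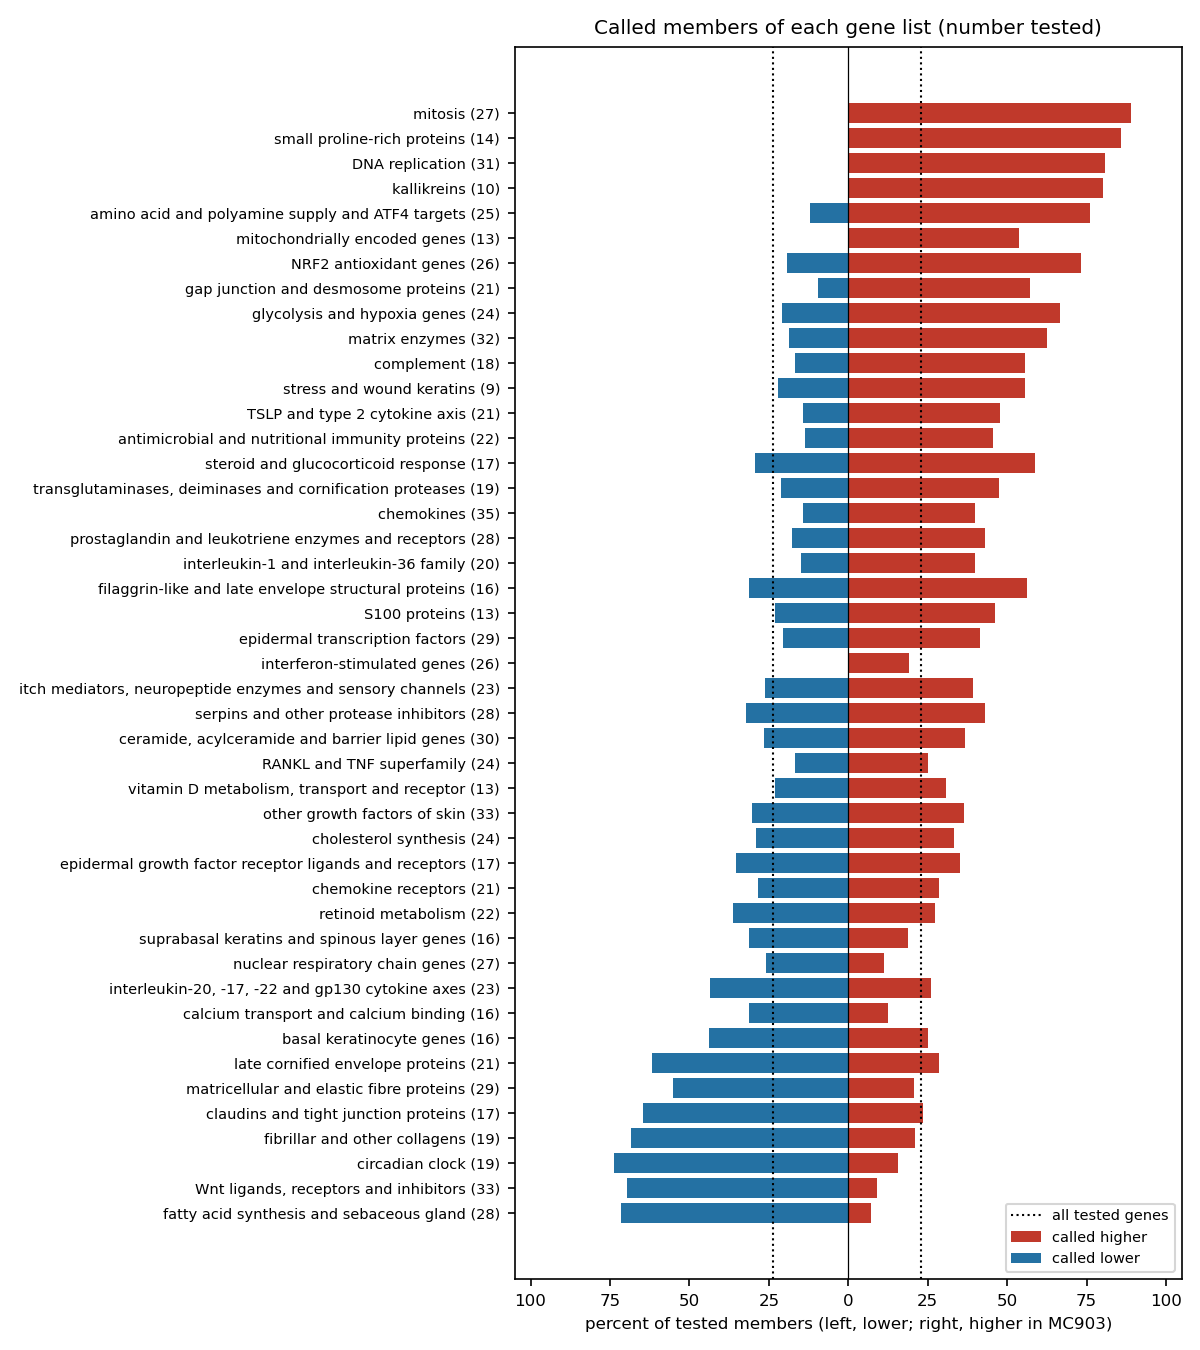
Bars give the percent of tested members of each gene list called higher (right) and lower (left) in MC903, with the number tested in brackets and dotted lines at the 23% and 23.8% of all genes. Mitosis, small proline-rich, replication and kallikrein genes have no member called lower (with library totals, replication and kallikrein genes have 1 each), and fatty acid, Wnt and clock genes have most members called lower.

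Retinoid genes had 6 called higher and 8 lower of 22. Crabp2, which carries retinoic acid to its receptor, rose from 30.1 ± 1.48 to 196 ± 16.8 CPM (2.70 ± 0.16), and Cyp26b1, which degrades it, from 119 ± 12.6 to 342 ± 44.8 CPM (1.52 ± 0.13). Rarres1 fell from 260 ± 24.5 to 49.7 ± 13.4 CPM (-2.39 ± 0.27). Steroid and glucocorticoid response genes had 10 called higher and 5 lower of 17, with Fkbp5, a glucocorticoid receptor target, rising from 41.1 ± 1.68 to 136 ± 10.3 CPM and the receptor Nr3c1 falling from 145 ± 7.04 to 62.4 ± 6.28 CPM. Sult2b1, the cholesterol sulfotransferase of cornifying cells, rose by 2.18 ± 0.13.

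Clock genes fell, 3 called higher and 14 lower of 19 with a median of -0.97. Hlf was measured at 115, 89.1 and 103 CPM in the control libraries and 17.2, 12.5 and 15.6 CPM in the MC903 libraries. Hlf, an output factor of the clock, was lower in each MC903 library (log2 change -2.77 ± 0.18, adjusted p = 3.88e-06). Genes of both clock arms fell, with Arntl (BMAL1) at -0.97 ± 0.11 and Npas2 at -1.78 ± 0.18 in the activating arm and Per3 at -1.56 ± 0.15 and Nr1d1 at -1.13 ± 0.14 in the repressing arm. Per1 and Bhlhe40 rose by 0.82 ± 0.13 and 1.18 ± 0.14, and Per2 and Cry1 were not called. The labels do not give the time of day at which ears were taken.

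Genes of matrix fibres and of matrix enzymes changed. Collagen genes had 4 called higher and 13 lower of 19. Col1a1 was measured at 1734, 1963 and 1836 CPM in the control libraries and 499, 620 and 397 CPM in the MC903 libraries. Each MC903 library was below all controls (log2 change -1.87 ± 0.14, adjusted p = 5.7e-06). Col1a2 and Col3a1 fell, with log2 changes of -1.92 ± 0.13 and -1.47 ± 0.17, and Col7a1, of anchoring fibrils, with -1.88 ± 0.08. The basement membrane collagens Col4a1 and Col18a1 rose by 0.78 ± 0.10 and 0.62 ± 0.07. Matrix enzymes had 20 called higher and 6 lower of 32. Mmp13, a collagenase, was at 5.22, 6 and 7.67 CPM in the controls and 364, 449 and 684 CPM in MC903 (log2 change 6.31 ± 0.64, adjusted p = 0.000247), and Mmp3 rose from 70.5 ± 4.22 to 175 ± 5.91 CPM, Mmp9 from 10.6 ± 1.44 to 65.6 ± 30.3 CPM and Has3, a hyaluronan synthase, from 7.63 ± 4.28 to 47.2 ± 8.35 CPM. Matricellular and elastic fibre genes had 6 called higher and 16 lower (3 and 19 with library totals) of 29. Periostin (Postn), a matrix protein often raised in chronic atopic skin, was at 1228, 1067 and 1132 CPM in the controls and 175, 241 and 198 CPM in MC903 and fell (log2 change -2.48 ± 0.12, adjusted p = 3.19e-07), while tenascin-C (Tnc) and osteopontin (Spp1) rose by 1.31 ± 0.11 and 2.50 ± 0.17.

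Markers of ear tissue types were present in the controls and lower in MC903. Skeletal muscle markers summed to 7660 to 11478 CPM in the controls and 3674 to 4590 CPM in the MC903 libraries, adipocyte markers to 1144 to 1402 CPM in the controls and 522 to 631 CPM in the MC903 libraries and cartilage markers to 746 to 942 CPM in the controls and 294 to 342 CPM in the MC903 libraries. These lists had 0 called higher and 19 lower of 21, 0 called higher and 15 lower of 15 and 0 called higher and 16 lower of 17. Schwann cell and nerve markers had 0 called higher and 12 lower of 14. Parvalbumin (Pvalb), of fast muscle fibres, was at 116, 215 and 273 CPM in the controls and 13.3, 22.1 and 7.32 CPM in MC903, and perilipin (Plin1) fell from 36.3 ± 8.55 to 4.08 ± 0.665 CPM. These markers fell together with the collagens and Wnt genes, and their part in those results was not tested. Fibroblast markers had 5 called higher and 12 lower (1 and 12 with library totals) of 18, with the peptidase Dpp4 rising by 1.06 ± 0.15 and Dpt falling with -1.54 ± 0.16. Without control library 3, 11 fibroblast markers were called. Actin Acta2 of smooth muscle was at a mean of 61.8 CPM in control and 63 CPM in MC903 ears and was not called.

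Macrophage markers had 14 called higher and 1 lower of 22, with the mannose receptor Mrc1 at 118, 124 and 111 CPM in the controls and 330, 334 and 306 CPM in MC903 (log2 change 1.46 ± 0.14, adjusted p = 2.09e-05) and Cd163 rising from 66.2 ± 6.93 to 160 ± 28.4 CPM. Ccr2, of recruited monocytes and dendritic cells, fell, with a log2 change of -0.89 ± 0.16. Complement genes had 10 called higher and 3 lower (8 and 4 with library totals) of 18: C1qa rose from 56.4 ± 6.55 to 161 ± 11.1 CPM and C3 from 246 ± 69.9 to 729 ± 25.7 CPM. Neutrophil markers had 12 called higher and 1 lower of 18. Csf3r and Cxcr2, receptors of neutrophils, rose by 1.76 ± 0.19 and 1.56 ± 0.27, but the granule gene Ltf was at a mean of 0.451 CPM in control and 0.288 CPM in MC903 ears, and Ngp and Ly6g had too few counts to be tested. The stefins and Padi4 on this list are the genes described above and are also made by keratinocytes in some states. Interferon-stimulated genes had 5 called higher and 0 lower of 26, 19.2% in all and below the 46.8% of all genes. That count of 5 was 2 without control library 1 or 3, 3 without MC903 library 3, 9 without MC903 library 2 and 11 without control library 2.

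T cell markers had 6 called higher and 10 lower of 24. Trdc was measured at 19.6, 20.6 and 18.5 CPM in the control libraries and 2.43, 2.66 and 2.7 CPM in the MC903 libraries. Trdc, the constant region of the delta chain carried by epidermal gamma-delta T cells of mice, was lower in each MC903 library (log2 change -2.91 ± 0.15, adjusted p = 2.45e-07). Tcrg-C1 fell from 7.87 ± 0.535 to 1.6 ± 0.264 CPM and the chemokine of these cells Xcl1 from 3.24 ± 1.29 to 0.239 ± 0.217 CPM, and the invariant chain Tcrg-V5 was at 1.06, 1.9 and 1.22 CPM in the controls and 0.0392, 0.129 and 0.163 CPM in MC903. Xcl1 shares exon sequence with a gene on the opposite strand. The shared chain Cd3g fell, with a log2 change of -1.53 ± 0.21. Trbc2, of alpha-beta T cells, rose from 13.9 ± 1.47 to 31.2 ± 3.74 CPM, but Trbc1, the other beta constant region, was not called, with a log2 change of -0.21. Cd5, Cd28 and Lck, at log2 changes of 0.11, 0.03 and 0.13, were not called. Ctla4 rose from 1.85 ± 0.268 to 6.05 ± 2.5 CPM and Icos from 2.51 ± 0.705 to 6.3 ± 0.837 CPM, while Foxp3 was at a mean of 0.766 CPM in control and 1.8 CPM in MC903 ears and was not called. The keratinocyte genes Skint5 and Skint9 fell in the same libraries, as given above, and a link to these T cell markers was not tested.

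Langerhans and dendritic cell markers had 3 called higher and 11 lower of 20. Cd74, the invariant chain of class II antigen presentation, was at 893, 1035 and 945 CPM in the controls and 389, 499 and 484 CPM in MC903, without overlap (log2 change -1.07 ± 0.10, adjusted p = 5.14e-06). Epcam, of Langerhans cells and some follicle cells, fell from 73.6 ± 10.4 to 22.9 ± 1.99 CPM, Cacnb3 from 38.3 ± 1.55 to 13.1 ± 1.6 CPM and Flt3 from 6.9 ± 0.536 to 1.9 ± 0.322 CPM. Cd207 (langerin) was at 16.5, 16.6 and 15.9 CPM in the controls and 8.55, 13.3 and 14.6 CPM in MC903 and was not called. Fscn1, of mature dendritic cells and other migrating cells, rose from 21.2 ± 6.55 to 94.1 ± 9.15 CPM (2.15 ± 0.21). Mast cell markers had 6 called higher and 2 lower of 13, with Tpsb2 rising from 12.3 ± 1.66 to 27.6 ± 6.02 CPM and the histamine enzyme Hdc as given above. Without MC903 library 3 or control library 3, 5 mast cell markers in all were called. Basophil and eosinophil markers had 4 called higher and 2 lower of 10 and summed to 14.7 to 17.2 CPM in the controls and 15.1 to 19 CPM in the MC903 libraries. Without MC903 library 2 or control library 3, 3 of these markers in all were called. The basophil protease Mcpt8 rose from 0.0545 to 2.17 CPM, a ratio of 39.5-fold (95% interval 13.3 to 416) on counts. No B and plasma cell marker of 9 was called by edgeR or DESeq2, 0 had an unadjusted p under 0.05, and 2 were called in a fit of the 6 libraries alone.

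**Figure D4:**
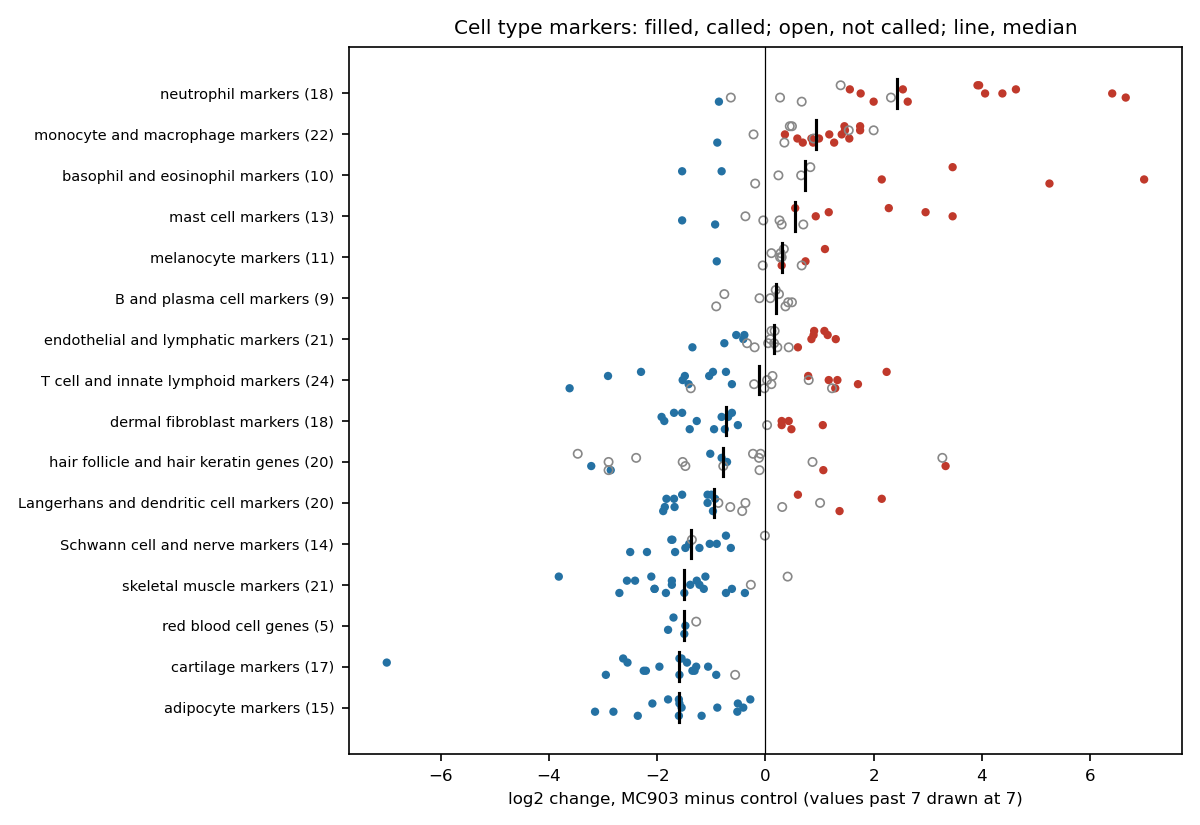
Each point is the log2 change, MC903 minus control, of a marker gene, with lists ordered by their median (black line), filled points for called genes and open points for genes not called. Neutrophil and macrophage lists have the highest medians, and adipocyte, cartilage, muscle and nerve lists lie almost wholly below 0.

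Endothelial and lymphatic markers had 7 called higher and 5 lower of 21. The adhesion molecules Selp, Sele and Vcam1, which capture leukocytes on activated vessels, rose by 1.15 ± 0.21, 1.30 ± 0.26 and 1.09 ± 0.22. The lymphatic regulator Prox1 fell, with a log2 change of -0.76 ± 0.18. Pecam1 and Cdh5, of all endothelium, were at a mean of 95.1 CPM in control and 111 CPM in MC903 ears and a mean of 33 CPM in control and 34.1 CPM in MC903 ears and were not called. Hair follicle genes had 2 called higher and 5 lower of 20, with Hoxc13, a regulator of hair and nail keratins, rising from 4.61 ± 1.36 to 46.5 ± 7.25 CPM (3.33 ± 0.35) and Lgr5, of follicle stem cells, falling with -1.02 ± 0.12.

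Genes that hold microRNAs were looked at after their values were seen. AL805899.1, a long RNA gene on chromosome 4 (88909855 to 88938521) that contains Mir31 on its strand, was listed at 0 counts in every control library and at 61.9, 54.7 and 57.6 CPM in MC903. Against the floor this is at least 294-fold higher. Mir17hg, on chromosome 14 (115042879 to 115046727), the host of the miR-17 to miR-92a cluster, was at 27.5, 27.2 and 24.9 CPM in the controls and 70.5, 57.8 and 81 CPM in MC903, without overlap (log2 change 1.39 ± 0.12, adjusted p = 3.13e-06). Only the host RNA was measured, not the mature microRNAs. The mature forms in RefSeq for the 5p arm of miR-31 and for 5 of the cluster follow, 5′ to 3′, with the seed, bases 2 to 8, in capitals.
miR-31-5p: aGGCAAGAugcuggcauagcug
miR-17-5p: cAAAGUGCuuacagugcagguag
miR-20a-5p: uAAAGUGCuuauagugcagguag
miR-19a-3p: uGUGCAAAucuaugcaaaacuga
miR-19b-3p: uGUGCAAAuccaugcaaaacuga
miR-92a-3p: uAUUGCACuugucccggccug
miR-17-5p and miR-20a-5p share the seed AAAGUGC, and miR-19a-3p and miR-19b-3p share GUGCAAA, while the seed of miR-31-5p is GGCAAGA.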

How the data were processed

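Messenger RNA was measured in 9 libraries of mouse ear. Per the labels' protocols, RNA with an integrity number above 7.0 was selected with oligo(dT) beads, and dUTP labelled the second strand. The submitters' processing notes list StringTie 1.3.4d, HISAT2 2.0.4, cutadapt and the build GRCm38. Their roles, and how strand entered the counting, are not known from the labels. The authors deposited whole numbers per gene, taken here as estimated counts. Low values pile up at multiples of 4, so a floor of 12 counts per library was used, and ratios of genes at or under it have exact 95% intervals on counts divided by 4. Intervals and floors cover counting error only.

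Features were matched to GENCODE M21 (55141 of 55401), and 21925 genes were kept by filterByExpr of edgeR (count of at least 10, total of at least 15). All 9 libraries were fitted in edgeR 4.0.16 (R 4.3.3) with TMM factors of 0.942 to 1.09, a robust quasi-likelihood fit, 1 coefficient per group and the two-sided contrast MC903 minus control, at an adjusted p under 0.05. Standard errors are approximate, the log2 change over the root of F. Principal components used log2 CPM with a prior count of 2. On counts divided by 4, the chi-square between replicates of a group was 7.03 to 15.3 per degree of freedom. The calling was tested on simulated data.

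Members and gene lists were chosen with earlier results of these data known. Named genes are 12 genes of the vitamin D, keratin and cytokine background, the 12 largest changes each way at a mean log2 CPM of at least 5, the 8 greatest gains and losses of CPM, and the 4 called members of smallest p per list and direction. The largest changes leave out predicted genes and those with no symbol. Other members are named by value or were chosen after their values were seen, as were the motif and list pairs other than the vitamin D receptor repeat. Alternatives were DESeq2 1.42.0, its size factors, library totals, the 6 libraries alone, the replicate number as a block, each library left out, counts divided by 4, no filter, a mean CPM of 1 and a minimum of 2-fold.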

Additional observations from a re-analysis of the deposited data

How the results depend on the processing

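The counts of genes called, called higher and called lower, 10259, 5044 and 5215, became 3733, 1502 and 2231 with a minimum of 2-fold. Over the other alternatives the number called ran from 9012 to 10809, and no gene called in both fits changed sign. Leaving out each library in turn gave 9012 to 9411 calls. The labels do not say whether equal replicate numbers mark pairs. Deviations from the group means correlated at 0.00939, 0.00803 and -0.0113 for same-numbered libraries. With 3 libraries a group these values cannot exclude a pairing. With the number as a block 10104 genes were called, 4975 higher and 5129 lower, and 11 mitochondrially encoded genes in place of 7. Scaling by library totals alone gave 16 called DNA replication (15 higher and 1 lower), 3 mitochondrially encoded, 20 nuclear respiratory chain and 2 melanocyte genes. With that scaling Atp2c1, Egfr and Ndufs3, not called at log2 changes of 0.03, 0.01 and 0.01, were called lower at -0.16, -0.18 and -0.18, as its shift of the median by its construction allows. DESeq2 called 9 interferon-stimulated genes, and the fit of 6 libraries 2 B and plasma cell markers; the cause was not tested. With single libraries left out, called members ranged from 2 to 11 for interferon-stimulated genes, 5 to 10 for suprabasal genes, 5 to 13 for mitochondrially encoded genes, 5 to 8 for mast cell, 3 to 4 for basophil and eosinophil, 11 to 15 for fibroblast and 2 to 4 for red blood cell markers. Depth limits genes near the floor of 12 counts per library, 0.197 CPM in controls and 0.225 CPM in MC903, such as Il13. In simulated data made from these libraries, 49 or 50 genes were changed at each fold and 21066 genes were not. Of the changed genes, 36.7% at 1.5-fold, 54% at 2-fold and 81.6% at 4-fold were recovered. A far smaller share of genes was changed there than was called here, so these rates need not hold for this comparison. Uncalled genes may have changed.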

Other observations

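Transcripts of the protein-making machinery were higher in MC903. Of 82 tested cytosolic ribosomal protein genes, a list chosen after its values were seen, 77 were called higher and 1 lower, with a median log2 change of 0.67 against -0.0155 for all genes. Their levels summed to 40035 to 41569 CPM in the controls and 60311 to 65079 CPM in the MC903 libraries, and scaling by library totals alone left 72 higher and 1 lower. Many processed pseudogenes resemble these genes, so reads may be split, and of 1661 tested processed pseudogenes 362 were called higher and 33 lower.

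Both mitochondrial ribosomal RNAs rose, and so did some of the mitochondrial messenger RNAs. mt-Rnr1 was measured at 279, 334 and 322 CPM in the control libraries and 1843, 2029 and 2162 CPM in the MC903 libraries. mt-Rnr2 was measured at 376, 436 and 400 CPM in the control libraries and 3715, 4332 and 4767 CPM in the MC903 libraries. No MC903 library overlapped the controls in either (log2 change 2.69 ± 0.16, adjusted p = 1.3e-06 for mt-Rnr1 and log2 change 3.40 ± 0.21, adjusted p = 4.06e-06 for mt-Rnr2). The 13 mitochondrial protein-coding genes had 7 called higher and 0 lower (3 and 0 with library totals), the called ones from 0.25 for mt-Atp6 to 0.82 for mt-Nd1, the subunit gene nearest to the ribosomal RNAs. Nuclear genes of the respiratory chain had 3 called higher and 7 lower (2 and 18 with library totals) of 27. The muscle isoforms Cox7a1, Cox6a2 and Cox8b fell, with log2 changes of -2.13 ± 0.24, -1.40 ± 0.20 and -1.40 ± 0.27, and Cycs, cytochrome c, rose by 0.69 ± 0.12. The libraries were selected on poly(A), and the share of ribosomal RNA that passes this selection was not tested.

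Pigment and blood genes were small lists. Melanocyte markers had 3 called higher and 1 lower (1 and 1 with library totals) of 11, with Tyrp1, a melanin enzyme, going from 15 ± 1.74 to 24.9 ± 6.23 CPM (log2 change 0.74 ± 0.18). Of 5 red blood cell genes, 0 were called higher and 4 lower, and beta-globin Hbb-bs went from 34.7 ± 10.7 to 12.4 ± 4.41 CPM.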
